A study of Rattus norvegicus with 12 samples.

Results

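The CCN family is a group of secreted matricellular proteins, which sit in the extracellular matrix and signal to cells rather than building the matrix. Its genes are *Ccn1* (older name Cyr61), *Ccn2* (Ctgf), *Ccn3* (Nov), *Ccn4* (Wisp1), *Ccn5* (Wisp2) and *Ccn6* (Wisp3). The members were taken by gene symbol from the deposited table of read counts, and all 6 were found among its 30560 genes. All 6 also passed the minimum of 10 counts over the libraries, as did 18182 genes in total. The family was chosen by its *Ccn5* values, since the fold of *Ccn5* in infarcted over sham-operated rats was among the largest in these same data. The values of infarcted against sham-operated rats are therefore given for the members as a description without a test. The same holds for the intervals, standard errors and ranks printed with these values, none of which allow for the choice. The fold of a gene chosen for its large fold is biased upward.

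RNA was sequenced from 12 hearts of male Wistar rats, 1 library per rat, in 3 groups of 4. Sham rats (12, 17, 32 and 38) had sham surgery and were gavaged with the vehicle, carboxymethylcellulose. MI rats (36, 57, 61 and 89) had a myocardial infarction from permanent ligation of the left anterior descending coronary artery and received the same vehicle, while MI+UA rats (29, 58, 64 and 66) had the same ligation and received urolithin A (UA), a gut-derived metabolite known as an inducer of mitophagy. All had surgery at 7 weeks of age and were dosed daily for 8 weeks, and the tissue was a formalin-fixed, paraffin-embedded block from the middle of the left ventricle, so that scar, border and remote muscle were not separated. The sources differ on the UA dose and on when dosing began. Rat 66 carries the UA label but stands among the vehicle-treated MI rats in the study's list of heart measurements. It was counted as MI+UA, and members whose change under UA turned sign when it was counted in MI are named. All other MI+UA values include it.

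CCN proteins bind integrins, heparan sulfate proteoglycans and LRP receptors, and they also bind growth factors. *Ccn1* and *Ccn2* are known as immediate targets of YAP and TAZ, the co-activators held back by the Hippo pathway, which act through TEAD transcription factors, and *Ccn2* is also a classical target of TGF-beta in fibroblasts. *Ccn4* and *Ccn5* were first described as genes induced by Wnt signalling. In the heart the family is known mainly from fibroblasts and scar: *Ccn2* is widely used as a marker of fibrotic signalling, and *Ccn5*, whose protein lacks the C-terminal module of the other members, has been described as opposing it.

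Reads assigned to genes ranged from 6228706 to 19031695 per library, and the groups overlapped in this depth. The share of reads assigned to genes did not overlap between Sham, at 46.9 to 48.3%, and MI, at 43.3 to 44.8%, and was 42.9 to 47.2% in MI+UA, and its part in the differences from Sham was not tested. Mitochondrially encoded genes took 50.2 to 58.6% of these reads. Levels are in CPM, the reads of a gene per 1000000 gene reads of its library, after scaling by the trimmed mean of M-values (TMM). CPM is not corrected for gene length, so levels are compared between groups for the same gene and not between genes. In blocks of whole tissue, fewer cells of a type and less RNA per cell cannot be told apart. Markers of fibroblasts and macrophages were higher and those of cardiomyocytes lower in the infarcted hearts, and the values stand beside the CCN results they move with.

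*Ccn1* and *Ccn2* are the members known best as TEAD targets, so their promoters are shown first. The 6 letters of the TEAD motif, GGAATG or its reverse complement CATTCC, are in capitals. Each run holds the 250 bases before the gene's start in RefSeq on the assembly GRCr8, read 5′ to 3′ along the gene's strand. *Ccn2* lies on the minus strand at chr1:22624615-22624864 and *Ccn1* on the minus strand at chr2:237225690-237225939.
Ccn2: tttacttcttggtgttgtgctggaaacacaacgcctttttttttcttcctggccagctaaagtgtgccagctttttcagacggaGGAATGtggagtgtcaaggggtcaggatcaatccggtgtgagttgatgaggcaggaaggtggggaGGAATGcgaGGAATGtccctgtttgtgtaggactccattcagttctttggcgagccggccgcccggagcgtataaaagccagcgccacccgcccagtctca
Ccn1: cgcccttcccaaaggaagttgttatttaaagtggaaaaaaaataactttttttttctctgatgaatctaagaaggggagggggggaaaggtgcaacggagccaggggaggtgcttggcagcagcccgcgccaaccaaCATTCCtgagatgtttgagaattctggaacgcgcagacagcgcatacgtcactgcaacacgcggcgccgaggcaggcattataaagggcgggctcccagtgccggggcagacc

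The *Ccn2* promoter held 3 matches to the TEAD letters, the nearest ending 87 bases before the start, and 2 of them were separated by only a few bases. Of 33469 promoters of this length in the table, 0.0807% held 3 or more matches on either strand. The *Ccn1* promoter held 1 match, beginning 113 bases before the start, and 12.1% of all promoters held at least 1. The promoter of *Ccn6* held 0 matches. The 5 letters CAGAC, the core read by SMAD proteins, were matched 1 time in *Ccn2*, 2 times in *Ccn1* and 2 times in *Ccn6*. Of all promoters, 42.9% held at least 1 match and 11.5% at least 2. The 5 letters CTTTG, the core read by the TCF factors of Wnt signalling, were matched 1 time in each of the 3 promoters, against 48.2% of all promoters with at least 1. No match overlapped another match in *Ccn2* or *Ccn1*. The table had entries for 3 of the 6 members, and *Ccn3*, *Ccn4* and *Ccn5* were missing. A match to letters is a description of the sequence and not a site shown to be bound in these hearts.

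In MI against Sham, the median log2 fold change of the family was 1.93, beside a median of 0.026 over all genes tested, and the single members ran from 0.79 for *Ccn1* to 4.94 for *Ccn5*. In 4 of 6 members, *Ccn2* to *Ccn5*, every MI rat stood above every Sham rat, beside 15.7% of all genes whose groups did not overlap and 8.12% whose MI rats all stood above. This count comes from the contrast that chose the family, and nothing is read from it.

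**Figure D1:**
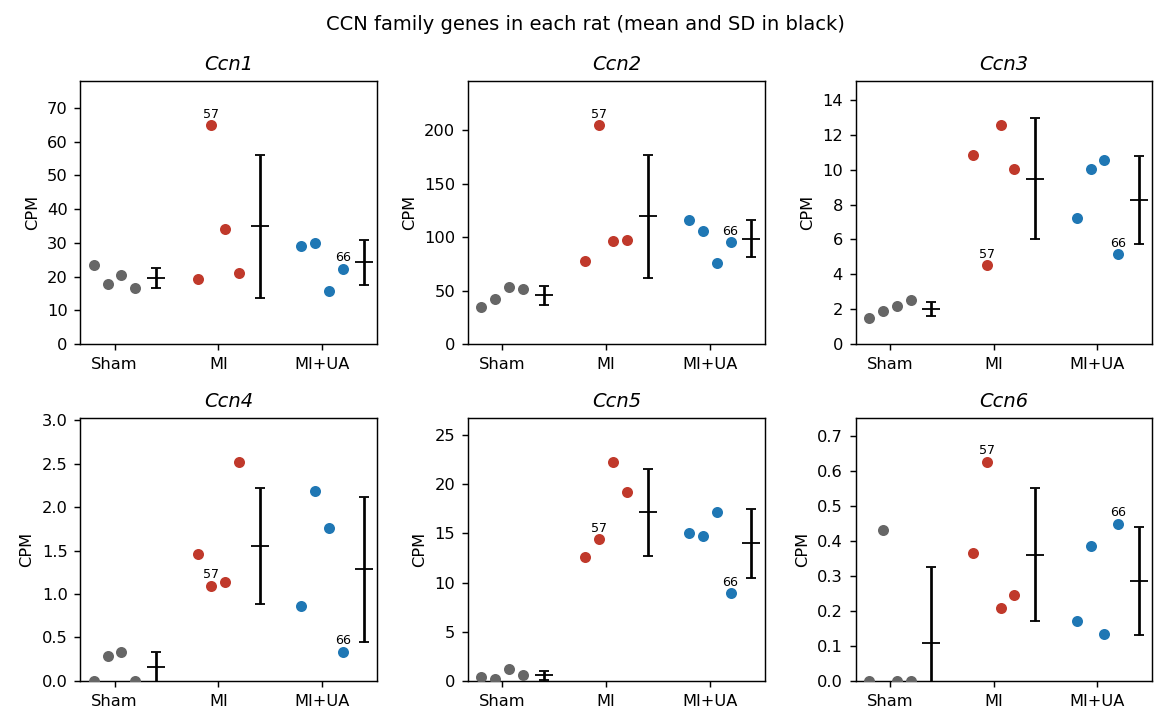
CPM of the 6 CCN genes (vertical axes, each with its own scale) in each rat of the Sham, MI and MI+UA groups. Points are rats, with rats 57 and 66 numbered, and the black bars give the group mean and SD, cut at 0. In *Ccn2*, *Ccn3*, *Ccn4* and *Ccn5* all 8 infarcted rats lie above all 4 Sham rats, and rat 57 is the highest MI rat in *Ccn1* and *Ccn2* and the lowest in *Ccn3*.

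*Ccn5* (ENSRNOG00000010666) was almost silent in Sham hearts. Its levels were 0.376, 0.144, 1.18 and 0.596 CPM in Sham rats 12, 17, 32 and 38, which rest on 3, 1, 7 and 5 reads. They were 12.6, 14.4, 22.3 and 19.2 CPM in MI rats 36, 57, 61 and 89, from 92 to 236 reads, and 15.03, 14.8, 17.2 and 8.95 CPM in MI+UA rats 29, 58, 64 and 66. Every infarcted rat, treated or not, stood far above the highest Sham rat, while the MI and MI+UA rats overlapped. The means were 0.574 ± 0.443 CPM in Sham, 17.2 ± 4.42 CPM in MI and 14.0 ± 3.53 CPM in MI+UA (SD, n = 4 each). The fitted fold was 30.6 in MI against Sham, with a 95% interval of 18.5 to 50.6. Its log2 fold change of 4.94 (standard error, SE, 0.35) ranked 20 of 18182 genes from the top. This fold chose the family, so the fold, its interval and its rank are biased upward and nothing is read from them. Since the Sham hearts gave only 16 reads together against 716 in the MI hearts, the ratio of summed CPM was 31.2 with an exact counting interval of 19.1 to 54.8, which covers counting error only.

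*Ccn4* (ENSRNOG00000007078), which encodes a CCN protein known from bone and from fibroblast growth, was found at few reads. Sham rats 12, 17, 32 and 38 had 0, 2, 2 and 0 reads. MI rats 36, 57, 61 and 89 had 20, 7, 11 and 31 reads, or 1.46, 1.10, 1.14 and 2.53 CPM, and MI+UA rats 29, 58, 64 and 66 had 15, 17, 13 and 6 reads, or 0.857, 2.18, 1.76 and 0.338 CPM. All 8 infarcted rats had more than the Sham rats, although MI+UA rat 66, at 0.338 CPM, stood barely above Sham rat 32 at 0.337 CPM. The log2 fold change of MI against Sham was 3.41 (SE 0.77), and the 69 reads of MI against 4 of Sham gave a ratio of 12.01 with a counting interval of 4.49 to 45.3. The fold of *Ccn4* thus stands within a wide interval, and it cannot be ranked against that of *Ccn5* or *Ccn3*.

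*Ccn3* (ENSRNOG00000008697), whose protein is known for counteracting *Ccn2* in fibrosis models, had a level in every heart. It stood at 1.51, 1.88, 2.19 and 2.50 CPM in Sham rats 12, 17, 32 and 38, at 10.8, 4.55, 12.6 and 10.0 CPM in MI rats 36, 57, 61 and 89, and at 7.199, 10.0, 10.6 and 5.18 CPM in MI+UA rats 29, 58, 64 and 66. The infarcted rats were all above the Sham rats, and the lowest of them were MI rat 57 and MI+UA rat 66. The means were 2.02 ± 0.427 CPM in Sham, 9.49 ± 3.46 CPM in MI and 8.24 ± 2.52 CPM in MI+UA (SD, n = 4 each). The fitted fold of MI over Sham was 4.78, with a 95% interval of 3.08 to 7.41.

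*Ccn2* (ENSRNOG00000015036), the profibrotic member and the one with the most reads, stood at 35.0, 42.3, 53.0 and 52.0 CPM in Sham rats 12, 17, 32 and 38. It reached 78.1, 205.0, 96.7 and 97.7 CPM in MI rats 36, 57, 61 and 89 and 116.5, 106.2, 75.7 and 95.8 CPM in MI+UA rats 29, 58, 64 and 66. The groups did not overlap between Sham and infarcted rats, and rat 57 had about 2 times the level of any other MI rat. The fitted fold of MI over Sham had a 95% interval of 1.89 to 3.59. Without rat 57 the log2 fold change of MI against Sham was 1.00 rather than 1.38, the lowest value when any single rat was left out.

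*Ccn1* (ENSRNOG00000014350), an angiogenic and stress-induced member, was the one in which the groups overlapped although every rat gave at least 116 reads. It stood at 23.3, 17.8, 20.4 and 16.6 CPM in Sham rats 12, 17, 32 and 38, at 19.4, 64.9, 34.3 and 20.9 CPM in MI rats 36, 57, 61 and 89, and at 29.1, 29.9, 15.7 and 22.4 CPM in MI+UA rats 29, 58, 64 and 66. MI rats 36 and 89 lay within the Sham range, while rat 57 again stood well above all others. The log2 fold change of MI against Sham was 0.79 (SE 0.28), and without rat 57 it was 0.34.

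*Ccn6* (ENSRNOG00000000597), whose human counterpart is known for a cartilage disease when mutated, was near the limit of detection in every group, with 32 reads over all 12 hearts. The Sham rats had 0, 3, 0 and 0 reads, the MI rats 5, 4, 2 and 3, and the MI+UA rats 3, 3, 1 and 8. A rat with 0 reads could hold up to 3 reads' worth, which in the Sham rats is 0.358 to 0.505 CPM and so as high as most infarcted rats. The ratio of MI to Sham was 3.25, with a counting interval of 0.907 to 17.6, and a difference was not detectable at this depth.

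The same reads can be described as the make-up of the family in each heart, without a test. As a share of the reads of all 6 genes in a heart, *Ccn2* took 66.7 ± 6.12% in Sham, 64.2 ± 5.20% in MI and 67.1 ± 4.19% in MI+UA (SD, n = 4 each). *Ccn1* took 29.1 ± 6.75% in Sham, 18.1 ± 3.95% in MI and 16.3 ± 2.32% in MI+UA, and *Ccn3* took 2.96 ± 0.413%, 6.14 ± 3.17% and 5.75 ± 2.21%. *Ccn5* took 0.804 ± 0.544% in Sham, 10.3 ± 3.82% in MI and 9.72 ± 3.18% in MI+UA. The lowest *Ccn5* share in any infarcted heart, 4.96%, was above the highest in any Sham heart, 1.53%. Gene length sets part of each share, so the shares compare groups and not genes.

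Urolithin A was compared with vehicle in the infarcted rats. This is another contrast than the one that chose the family, but it shares its 4 MI rats, and choosing on high MI values of *Ccn5* favours a lower value in MI+UA, so nothing is read from the sign. None of the CCN genes passed the test. All 6 had a lower fitted level with UA, and the median of the 6 log2 fold changes was -0.30 beside 0.0047 over all genes tested, but the 6 share the same 8 hearts and all of their groups overlapped. The log2 fold change was -0.47 for *Ccn1* (95% interval -1.03 to 0.094), -0.26 for *Ccn2* (-0.70 to 0.18) and -0.28 for *Ccn3* (-0.78 to 0.22). It was -0.46 for *Ccn4* (-1.51 to 0.59), -0.32 for *Ccn5* (-0.74 to 0.11) and -0.22 for *Ccn6* (-1.80 to 1.36). The edgeR quasi-likelihood test gave each an adjusted p of 0.99972, and the smallest unadjusted p was 0.0974, for *Ccn1*. Called members were 0 with edgeR at an adjusted p under 0.05, 0 at an unadjusted p under 0.05 and 0 with DESeq2, beside 0% of all genes at the adjusted and 3.79% at the unadjusted threshold and 2.34% whose groups did not overlap. For *Ccn5* the interval spans a level in MI+UA from 0.597 to 1.08 times that in MI, and so holds both no difference and a clearly lower level.

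2 rats bear on these small negative values. Without MI rat 57, the log2 fold change of MI+UA against MI was 0.12 for *Ccn2* and -0.012 for *Ccn1*. With rat 66, the lowest MI+UA rat in *Ccn3*, *Ccn4* and *Ccn5*, counted among the MI rats, it was 0.066 for *Ccn3*, 0.22 for *Ccn4* and 0.023 for *Ccn5*. The direction of the members under UA therefore changed with 1 rat in 4 of the 5 genes with the most reads, and *Ccn6* also changed sign without rat 57, at 0.074. No adjusted p passed the threshold in any of these fits.

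MI+UA hearts were also set against Sham hearts. These are the same 4 Sham rats, whose low *Ccn5* entered the choice of the family. These values and their intervals, which do not allow for that choice, are thus also given as a description without a test. *Ccn5* stood 4.62 higher on the log2 scale (95% interval 3.88 to 5.36), *Ccn4* 2.95 higher (1.28 to 4.63) and *Ccn3* 1.98 higher (1.33 to 2.62). *Ccn2* stood 1.12 higher (0.66 to 1.58), *Ccn6* 1.39 higher (-0.64 to 3.42) and *Ccn1* 0.33 higher (-0.27 to 0.92). In 4 of 6 members every MI+UA rat stood above every Sham rat, beside 14.3% of all genes that did not overlap and 7.83% with the MI+UA rats above.

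**Figure D2:**
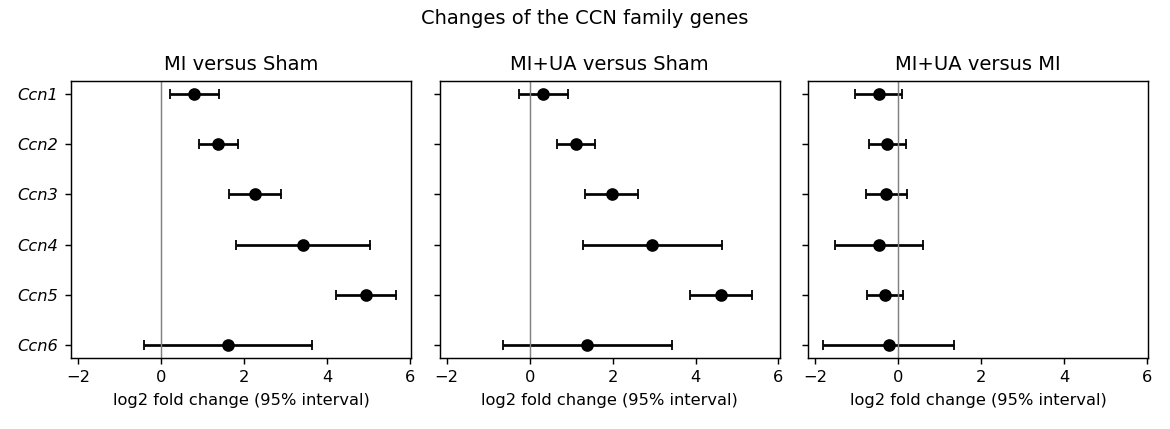
Log2 fold change (horizontal axes) of each CCN gene in MI against Sham, MI+UA against Sham and MI+UA against MI. Points are edgeR estimates with their 95% intervals, and the grey line marks no difference. The intervals against Sham do not allow for the choice of the family and are not read as tests. *Ccn5* lies at 4.94 and 4.62 against Sham, and all 6 intervals of MI+UA against MI include 0.

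Transcripts of fibroblast markers moved with these values. The 7 fibroblast markers (*Pdgfra*, *Col3a1*, *Col1a1*, *Dcn*, *Lum*, *Col1a2* and *Tcf21*) summed to between 1125 and 1433 CPM in Sham, 2174 and 3537 CPM in MI and 2192 and 3645 CPM in MI+UA, and 5 of the 7 rose in MI against Sham by the edgeR test. The sum is carried by collagen genes, with log2 fold changes of 1.45 for *Col3a1*, 1.56 for *Col1a1* and 1.26 for *Col1a2*, while *Pdgfra* rose by 0.49 and *Dcn*, at 0.19, and *Tcf21*, at 0.52, did not pass. None of the fibroblast markers was at 0 in any group. The 5 cardiomyocyte markers tested, all called lower in MI than in Sham, summed to between 9682 and 12100.5 CPM in Sham, 6572 and 6790 CPM in MI and 6870 and 8730 CPM in MI+UA. The 7 macrophage markers, of which 6 rose in MI, summed to between 75.9 and 90.5 CPM in Sham, 138.0 and 184.0 CPM in MI and 125.0 and 194.5 CPM in MI+UA. The 4 markers of smooth muscle and myofibroblasts, of which 3 rose in MI, overlapped, at 92.7 to 123.2 CPM in Sham, 109.6 to 222.6 CPM in MI and 107.1 to 161.5 CPM in MI+UA. In MI+UA, rat 66 set the lowest fibroblast, macrophage and smooth muscle sums and the highest cardiomyocyte sum. Of the other marker lists, 1 of 4 pericyte, 1 of 4 Schwann cell and 3 of 6 cartilage and tendon markers rose, 1 of 5 endothelial markers fell, and 0 of 5 lymphocyte, 0 of 2 adipocyte and 0 of 5 epicardial markers passed. Over all genes, 5.82% were called higher and 5.53% lower in MI against Sham, and nothing is read from single calls in such short lists. Among the cartilage markers, the call of *Col2a1* rests on MI rat 36, as given below.

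Divided by the fibroblast sum of the same heart, *Ccn5* stood at 0.101 to 0.912 CPM per 1000 CPM of fibroblast markers in Sham, 4.53 to 7.83 in MI and 4.05 to 5.50 in MI+UA. Its MI mean on this scale was 13.6 times the Sham mean and its MI+UA mean 10.4 times, and the infarcted rats stayed above the Sham rats.

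*Ccn3* stood at 1.31 to 1.87 CPM per 1000 CPM of fibroblast markers in Sham, 2.09 to 4.41 in MI and 2.36 to 3.11 in MI+UA, still without overlap with Sham. *Ccn2* stood at 29.5 to 41.0 in Sham, 27.6 to 94.3 in MI and 22.3 to 43.7 in MI+UA. The separation of *Ccn2* between Sham and infarcted hearts was thus no longer seen when each heart's fibroblast markers were taken as the base. Rat 57 and, by little, MI+UA rats 29 and 66 stood above the Sham range, and hearts of both infarcted groups stood below it, the lowest being MI+UA rat 64 at 22.3. *Ccn1* stood at 12.3 to 20.7 in Sham, at 5.92 to 12.02 in 3 of the 4 MI rats and at 29.9 in rat 57, and at 4.63 to 10.6 in MI+UA, so that the MI rats lay on both sides of the Sham rats and all MI+UA rats below them. *Ccn4* stood at 0 to 0.261 in Sham, 0.401 to 0.714 in MI and 0.154 to 0.599 in MI+UA, where rat 66 lay within the Sham range, and *Ccn6* overlapped in all groups. Divided by the cardiomyocyte sum instead, which was itself lower in infarcted hearts, *Ccn2* stood at 3.25 to 4.61 in Sham, 11.5 to 30.7 in MI and 10.4 to 15.5 in MI+UA. *Ccn1* stood at 1.37 to 2.16 in Sham, 2.86 to 9.74 in MI and 2.17 to 4.36 in MI+UA. On that base both genes were higher in every infarcted rat than in any Sham rat, by little for *Ccn1* in rat 64, so their place against Sham differed with the base. These ratios set one gene against a sum of others and were not tested, nor was the part of any cell type in the CPM values.

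**Figure D3:**
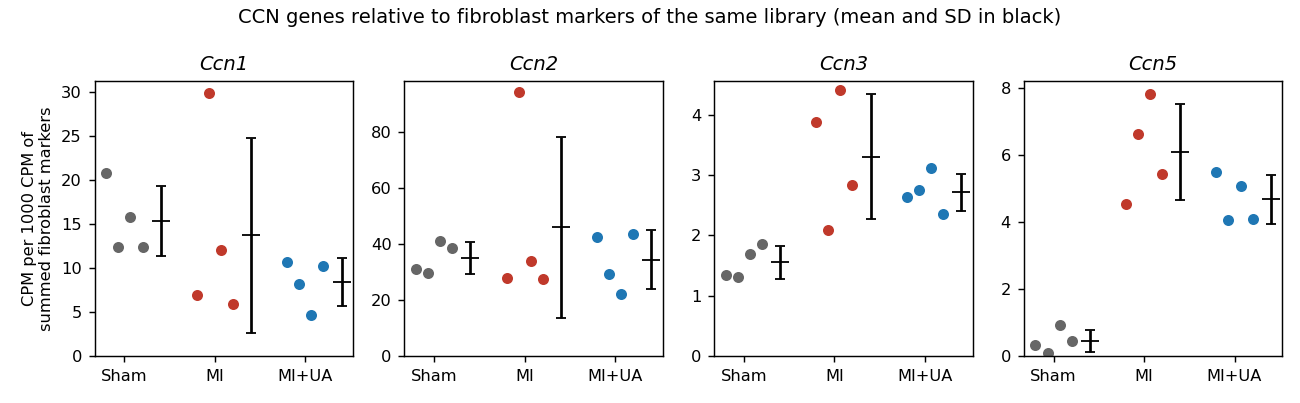
Level of *Ccn1*, *Ccn2*, *Ccn3* and *Ccn5* relative to fibroblast marker transcripts, in CPM per 1000 CPM of 7 summed fibroblast markers of the same heart (vertical axes), for each rat of the 3 groups. Points are rats and black bars give the mean and SD. *Ccn5* and *Ccn3* stay above the Sham rats in all 8 infarcted rats, whereas *Ccn2* overlaps between the groups.

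Between hearts, the family fell into different patterns. Over the 12 libraries, the log2 CPM of *Ccn3* and *Ccn5* had a Pearson correlation of 0.93, that of *Ccn4* and *Ccn5* 0.84 and that of *Ccn2* and *Ccn5* 0.84, values that carry the difference between Sham and infarcted hearts. After each group's mean was subtracted, *Ccn1* and *Ccn2* had a correlation of 0.78, *Ccn3* and *Ccn5* one of 0.44 and *Ccn2* and *Ccn5* one of 0.15. *Ccn3* ran against *Ccn1* and *Ccn2* within groups, with correlations of -0.63 and -0.54. Much of this came with rat 57, the highest heart for *Ccn1* and *Ccn2* and the lowest MI heart for *Ccn3*. Over the 11 other libraries, in a comparison added after seeing the data, the correlation after group means was 0.42 for *Ccn1* and *Ccn2*, -0.14 for *Ccn1* and *Ccn3* and 0.17 for *Ccn2* and *Ccn3*, while that of *Ccn3* and *Ccn5* was 0.52 and that of *Ccn2* and *Ccn5* 0.44. The lowest value after group means was that of *Ccn5* and *Ccn6*, at -0.80 over 12 libraries and -0.81 without rat 57, but *Ccn6* rests on 32 reads in all. The points share their libraries, depth and scaling, so they are a description.

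The genes whose log2 CPM followed *Ccn5* most closely over the 12 hearts were matrix genes for the most part. They were *Mgp*, an inhibitor of calcification (correlation 0.985), the proteoglycan *Vcan* (0.984), the fibrillin-binding *Ltbp2* (0.977), the collagen cross-linking enzyme *Loxl2* (0.976) and *Fam180a* (0.976). *Ltbp2* stood at 3.14 to 4.55 CPM in Sham hearts against 74.0 to 98.1 CPM in MI and 67.2 to 112.1 CPM in MI+UA. *Mgp* differed less, at 36.5 to 59.5 CPM in Sham, 114.7 to 164.7 CPM in MI and 104.2 to 151.6 CPM in MI+UA. All 5 separated Sham from infarcted hearts, which any gene like *Ccn5* has to do. After group means were subtracted, *Zfp282* (0.911), *Gng8* (0.910) and *Rbbp8* (0.905) were the most alike.

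*Ccn3* was most like the complement genes *C4a* (0.981) and *C4b* (0.9747), near-identical copies whose reads may be split between them, the integrin subunit *Itga8* (0.977), the microfibril protein *Fbn1* (0.976) and the proteoglycan *Bgn* (0.970). *Itga8* stood at 4.89 to 7.22 CPM in Sham and at 10.3 to 20.5 CPM in MI, where rat 57 was the lowest as in *Ccn3*. In MI+UA rats it stood at 10.1 to 20.0 CPM, and rat 66 was the lowest. After group means the nearest genes were *Ehmt2* (0.937), *Gimap9* (0.932) and the actin cross-linker *Flna* (0.930).

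*Ccn2* was most like *Tsc22d1*, known as a TGF-beta-stimulated gene (0.977), the SMAD co-repressor *Ski* (0.966), the chromatin remodeller *Chd9* (0.952), *Adamtsl2*, whose protein binds a TGF-beta binding protein (0.9503), and the ligand gene *Tgfb2* (0.943). *Tsc22d1* stood at 116.2 to 138.2 CPM in Sham, at 153.8, 221.4, 157.6 and 174.7 CPM in MI rats 36, 57, 61 and 89 and at 151.0 to 178.5 CPM in MI+UA. It shared the high value of rat 57 with *Ccn2*, and it stayed first after group means were subtracted (0.940), followed by *Stk24* (0.939) and the intermediate filament gene *Synm* (0.909). *Adamtsl2* stood at 4.39 to 6.90 CPM in Sham, 21.5 to 59.3 CPM in MI, with rat 57 the highest, and 21.9 to 28.8 CPM in MI+UA. The likeness of *Ccn1* was weaker and led by *Epha1* (0.874), *Slc7a6* (0.873), *Scn3b* (0.856), *Fkbp5*, a gene induced by glucocorticoids (0.850), and *Stx11* (0.843), each highest in rat 57. After group means it was led by *Nt5dc3* (0.913), *Hdhd3* (0.873) and *Zmynd11* (0.873). *Ccn4* and *Ccn6* had too few reads for such a comparison. 10929 genes were compared in each of these searches. The highest of so many correlations over 12 libraries can be high by chance, above all after group means, and no list was tested against that. How far the likeness of *Ccn1* and *Ccn2* rests on rat 57 was not tested.

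**Figure D4:**
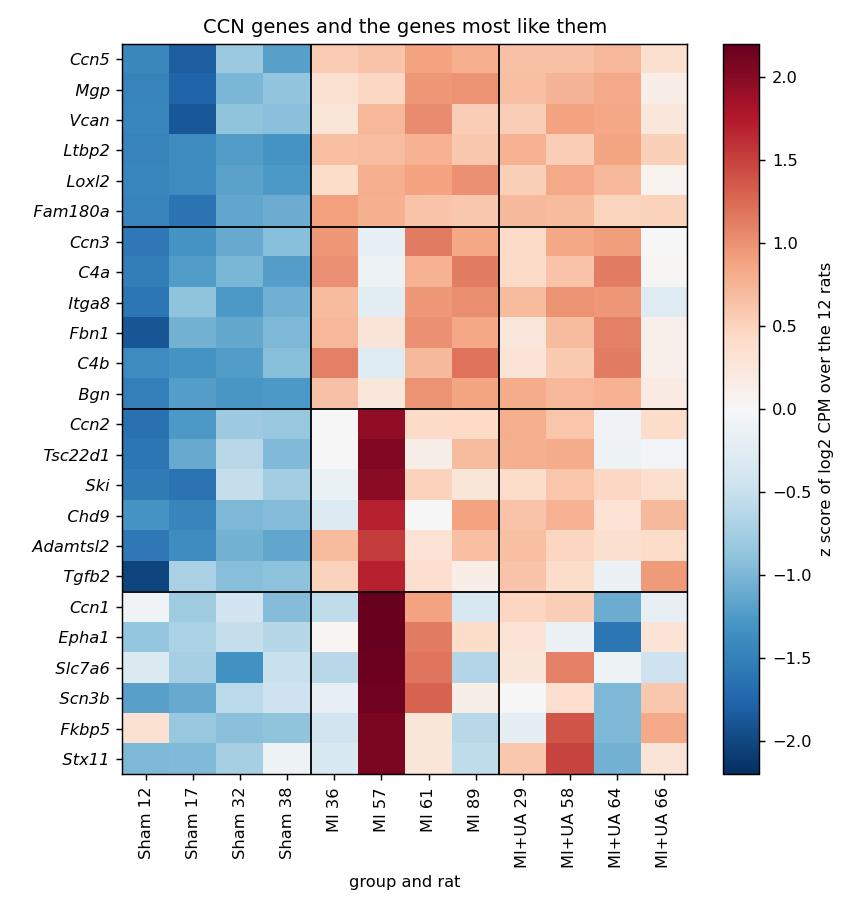
Standardised log2 CPM (z score over the 12 rats, colour scale) of *Ccn5*, *Ccn3*, *Ccn2* and *Ccn1*, each followed by its 5 most correlated genes (rows), in the Sham, MI and MI+UA rats (columns). The blocks of *Ccn5*, *Ccn3* and *Ccn2* separate the 4 Sham rats from the 8 infarcted rats, and those of *Ccn2* and *Ccn1* have their highest value in MI rat 57.

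Genes around the family were taken as lists by role, and their counts stand beside the background over all 18182 genes. By edgeR's quasi-likelihood test with Benjamini-Hochberg adjustment at 0.05, 11.4% of all genes were called in MI against Sham, 5.82% higher and 5.53% lower, so that 1 or 2 calls in a list of about 14 genes are near the background. Of 14 receptors and binding partners tested, 2 rose in MI against Sham by the edgeR test and 0 fell, with a list median log2 fold change of 0.16 beside 0.026 over all genes. *Lrp1*, an endocytic receptor for *Ccn2*, stood at 241.5 to 274.5 CPM in Sham and 450.7 to 556.9 CPM in MI without overlap and rose by 0.98 on the log2 scale (SE 0.10, edgeR adjusted p = 3.57e-06). The count was 1 without Sham rat 32, MI rat 57 or MI rat 61, and 4 without MI+UA rat 64 or with only the groups compared in the fit. *Itgb1*, the common integrin beta subunit, rose by 0.28 (SE 0.08, edgeR adjusted p = 0.0345). In MI+UA against Sham 3 of the 14 rose, beside 9.44% of all genes called and 5.16% called higher. They were *Lrp1* and the leukocyte integrin genes *Itgb2* and *Itgam*.

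Of 15 Hippo, YAP and TEAD components tested, 1 rose in MI, *Mob1a*, a co-activator of the LATS kinases, by 0.30 (SE 0.08, edgeR adjusted p = 0.0193), and the list median was 0.12. The count was 0 without Sham rat 38, MI rat 61 or MI rat 89. Among 20 YAP and TEAD targets other than the CCN genes, 7 rose and 2 fell in MI against Sham, with a median of 0.40. The largest were *Myof*, at 17.4 to 21.5 CPM in Sham and 41.8 to 59.3 CPM in MI, higher by 1.33 on the log2 scale (SE 0.17), *Tgfb2*, with 1.31 (SE 0.21), and the matrix gene *Ccdc80*, with 1.10 (SE 0.17). The targets that fell were *Crim1*, by 0.28 on the log2 scale, and *Amotl2*, by 0.36. These are transcript levels, and the pathway is set chiefly by phosphorylation, which was not measured.

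Of 17 genes on the TGF-beta and SRF side, 5 rose in MI and 0 fell, with a median of 0.22. *Thbs1*, an activator of latent TGF-beta, stood at 15.3 to 25.3 CPM in Sham and 65.3 to 125.6 CPM in MI and rose by 2.04 (SE 0.23, edgeR adjusted p = 6.51e-06), *Tgfb2* by 1.31 and *Tgfb3* by 1.00 (SE 0.12, edgeR adjusted p = 1.11e-05). *Tgfb1* and *Ltbp1* also passed. Of 13 Wnt inputs and targets tested, 2 rose and 0 fell, with a median of 0.14, and the count was 1 without Sham rat 38, MI rat 36 or MI rat 61. They were the receptor *Fzd2*, at 2.38 to 4.62 CPM in Sham and 7.53 to 10.8 CPM in MI, which rose by 1.52 (SE 0.22, edgeR adjusted p = 0.00013), and the feedback inhibitor *Nkd1*, with 0.91 (SE 0.24, edgeR adjusted p = 0.0159).

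Among these 7 lists by role, the highest medians were those of other secreted matrix genes. Of 14 other matricellular genes tested, 9 rose in MI and 0 fell, with a median of 1.79, and of 14 cartilage and tendon matrix genes, 10 rose and 0 fell, with a median of 1.92. *Comp*, a cartilage matrix protein that is in both lists, stood at 0.125 to 0.238 CPM in Sham, 4.23 to 11.3 CPM in MI and 3.32 to 7.17 CPM in MI+UA. *Thbs4* stood at 0.715 to 2.86 CPM in Sham and 13.6 to 24.2 CPM in MI, and rose by 3.84 on the log2 scale (SE 0.33, edgeR adjusted p = 2.79e-07). *Cilp2* stood at 0 to 0.119 CPM in Sham and 0.570 to 3.58 CPM in MI. *Tnn* passed at 4.24 on the log2 scale (SE 1.30, edgeR adjusted p = 0.0389), although its lowest MI rat, at 0.157 CPM, was within the Sham range. With *Thbs1*, also matricellular, and *Tgfb2* counted in 2 lists each, the lists are not independent.

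The call of *Col2a1*, the main collagen of cartilage, rests on 1 heart. It stood at 29.6 CPM, or 405 reads, in MI rat 36, at 0 in the other MI rats and at 0 to 0.376 CPM elsewhere, while *Acan*, the large proteoglycan of cartilage, had 126 reads in the same heart, 0 to 16 in the other MI rats, 2 to 35 in MI+UA and 0 to 2 in Sham. *Ccn5*, at 12.6 CPM in rat 36, was the lowest of the MI rats there, and without rat 36 its log2 fold change of MI against Sham was 5.07.

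Under UA none of these list genes passed at an adjusted p under 0.05, as for all genes. At an unadjusted p under 0.05, the counts in MI+UA against MI were 0 of 14 receptors, 0 of 15 Hippo components, 2 of 20 YAP and TEAD targets, 1 of 17 TGF-beta and SRF genes, 0 of 13 Wnt genes, 1 of 14 matricellular genes and 1 of 14 cartilage genes, beside 3.79% of all genes. *Thbs1*, 1 of the genes with an unadjusted p under 0.01, stood at 38.9 to 76.2 CPM in MI+UA against 65.3 to 125.6 CPM in MI, a difference of -0.60 on the log2 scale (SE 0.21, unadjusted p = 0.00837 and adjusted p = 0.99972 with edgeR). *Amotl2*, a Hippo-pathway scaffold and YAP target, stood at 57.02 to 77.2 CPM in MI+UA against 52.4 to 57.9 CPM in MI, a difference of 0.28 on the log2 scale (SE 0.10, unadjusted p = 0.0082 and adjusted p = 0.99972 with edgeR). *Col2a1* also had an unadjusted p under 0.01, from the reads of rat 36.

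**Figure D5:**
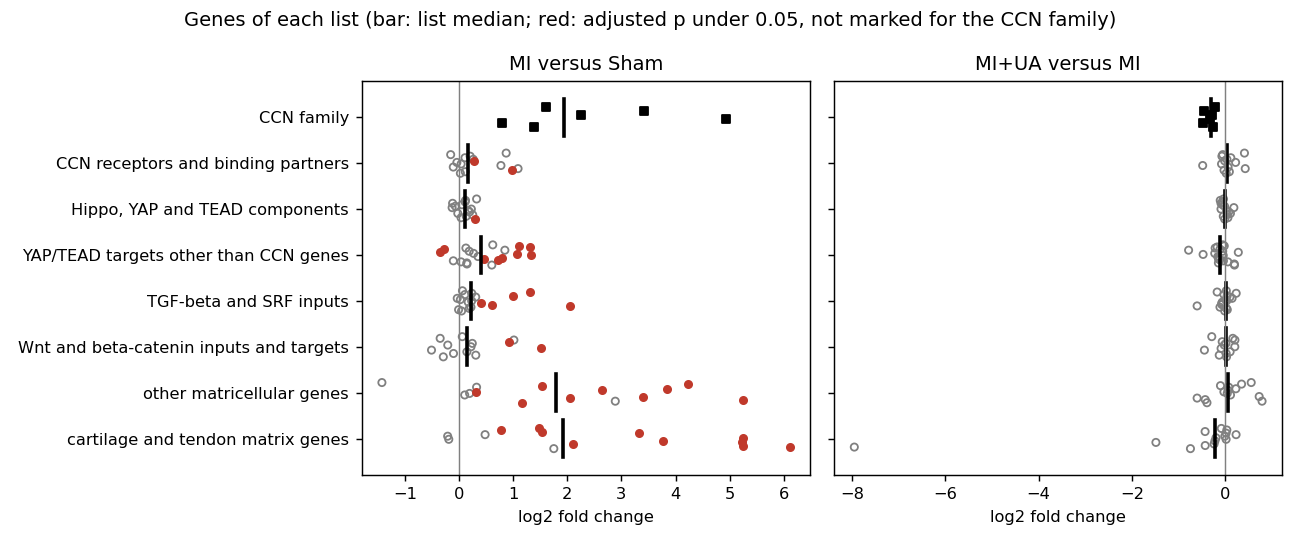
Log2 fold change (horizontal axes) of each gene tested in 8 lists, the CCN family and 7 lists of related genes, in MI against Sham and in MI+UA against MI. Each point is a gene, the black bar is the list median, and red points passed the edgeR test at an adjusted p under 0.05, which is not marked for the CCN family. The matricellular and cartilage lists, with medians of 1.79 and 1.92, lie nearest to the CCN median of 1.93 in MI against Sham, and no point is red in MI+UA against MI, where *Col2a1* is the point at -7.95.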

How the data were processed

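The values used are counts of reads per gene for 12 libraries, 4 per group, as the authors deposited them in 1 table. The authors aligned strand-specific reads with STAR 2.6.1c to the rat assembly mRatBN7.2 and counted reads per gene with HTSeq; whether counting used strand is not given in the sources used here, nor is the HTSeq version. The labels name polyA RNA and the methods ribosomal RNA depletion. A further MI+UA library, left out by the study, is not used here. The summary lines that name no gene held 51.7 to 57.1% of each library and stayed out of library sizes and tests. No 2 columns were identical.

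The 18182 genes whose counts summed to 10 or more were scaled by TMM and tested with edgeR 4.0.16 in R 4.3.3 (quasi-likelihood test, 3 groups in 1 fit, Benjamini-Hochberg adjustment over all genes tested, two-sided). CPM uses the TMM-scaled library size, and log2 CPM a prior count of 1. The script was tested on simulated counts. Alternatives were DESeq2 1.42.0, only the groups compared, other filters and scalings, rat 66 counted in MI, and each rat left out. Each library is 1 rat, so the spread is between animals. No batch is given in the labels.

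The members and gene lists were chosen with earlier results of these data known. Named were every member, in each list up to 3 called genes with the largest change in MI and those with an unadjusted p under 0.01 under UA, and for each member with an average log2 CPM of at least 1 the 5 genes most correlated over the libraries and the 3 after subtracting group means. Other list genes named by count, such as *Itgb2*, *Crim1* or *Tgfb1*, were chosen after their values were seen. In the lists, *Sp5*, *Matn3*, *Lep* and *Cidec* were under the minimum, and *Amot*, *Fzd1*, *Tnxb* and *Pln* were not found by symbol. Promoters came from RefSeq (GRCr8). Deposited counts carry no gene length.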

Additional observations from a re-analysis of the deposited data

Results flagged for a closer look

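In the Sham group, *Ccn6* was flagged because 1 sample stood far from the others: rat 17 had 3 reads and the other 3 Sham rats 0, so that the gap to the nearest rat divided by the range was 1.0. Of 18 groups of 4 rats examined over the 6 genes, 1 was flagged, and chance flags about 1 in 20 such groups when values are not tied. With 3 rats tied at 0 and 1 above, a group is always flagged, so that rate does not apply here. The value of rat 17 rests on 3 reads.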

How the results depend on the processing

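Of 339 log2 fold changes of the members recomputed, 6 changed sign, all of them in MI+UA against MI. Calls of members in the comparisons with Sham are not given, since these are described without a test. *Ccn4* in MI+UA against Sham ran from 2.50 to 3.57 on the log2 scale as each rat was left out. In MI+UA against MI, where no member was called in any of these fits, the sign turned for *Ccn2* (0.12) and *Ccn6* (0.074) without MI rat 57, for *Ccn6* without MI+UA rat 29 (0.0083), and for *Ccn3* (0.066), *Ccn4* (0.22) and *Ccn5* (0.023) with rat 66 counted in MI. With each rat left out, *Ccn2* ran from -0.42 to 0.12 and *Ccn6* from -0.61 to 0.074. Genes called in that comparison numbered 0, but 3 without a filter on low counts and 0 to 1 with each rat left out, the 1 being without MI rat 36. No paired analysis was possible because each rat is in 1 group only.

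In MI against Sham the called genes numbered 1913 to 2216 over the other settings and 1468 to 2182 with each rat left out, and in MI+UA against Sham 1736 to 1921 and 1155 to 1895, beside 2064 and 1716. In MI against Sham the log2 fold change of *Ccn1* ran from 0.34 to 1.00 and that of *Ccn5* from 4.64 to 5.43 as each rat was left out. Counts of called list genes moved by over 1.5 times in 37 of 399 values, in MI against Sham those of the receptors (1 to 4), the Hippo components (0 to 1) and the Wnt genes (1 to 2). Mean CPM moved by more than 1 SD in 17 of 36 values, since TMM without mitochondrially encoded genes takes their reads out of the denominator. With 4 rats a group, and few reads for *Ccn4* and *Ccn6*, only large differences could be resolved for these genes.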
